A study of Mus musculus with 16 samples.

Results

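The genes described here are 9 markers of vascular mural cells, the smooth muscle cells and pericytes that wrap blood vessels. They were chosen by name, as the rows of the deposited expression table called Myh11, Acta2, Tagln, Cnn1, Mylk, Pdgfrb, Rgs5, Notch3 and Cspg4. All 9 were found among the 16118 genes of the table, and all 9 passed the filter on low values in every comparison. They were followed in 4 groups of 4 libraries from adult male mice, idKO atrium, control atrium, idKO ventricle and control ventricle. The idKO mice were Meis1 flox/flox, Meis2 flox/flox and carried 1 copy of the alpha-MHC-MerCreMer transgene. The control mice were Meis1 flox/flox, Meis2 flox/flox and wild type for the transgene, so both genotypes had both floxed gene pairs. All hearts came from littermates and were taken 2 weeks after tamoxifen, which activates MerCreMer. The outflow tract was cut away, and blood was flushed out through a cannula. Each mouse gave 1 atrial and 1 ventricular library.

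Smooth muscle cells contract when Mylk, the myosin light chain kinase, phosphorylates the light chain of smooth muscle myosin, whose heavy chain is Myh11. That myosin pulls on smooth muscle actin (Acta2), and Tagln (transgelin, or SM22 alpha) and Cnn1 (calponin 1) are actin-binding proteins of the same filaments. Pericytes sit on capillaries and depend on the receptor Pdgfrb, which receives PDGF-B from the endothelium. Notch3 is the Notch receptor of arterial smooth muscle and pericytes, Cspg4 encodes the NG2 proteoglycan on their surface, and Rgs5, a regulator of G-protein signalling, is abundant in pericytes. The alpha-MHC promoter is active in cardiomyocytes, so the Cre recombinase was not directed at the cells these genes mark.

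Values are normalised read counts, that is, reads scaled to an effective library size that the deposited table implies. The libraries held 13.1 to 21.8 M (mega) reads. The effective size was on average 0.958 of the reads in idKO atria and 0.947 in control atria, but 0.687 in idKO ventricles and 0.639 in control ventricles, so a level set across chambers depends on this scaling. Of the floxed genes, Meis2 stood at 7.78 to 9.66 in idKO ventricles and 22.4 to 32.6 in control ventricles (limma adjusted p = 2.0e-05), and at 15.3 to 18.98 in idKO atria and 18.7 to 22.1 in control atria, which was not called. Meis1 stood at 19.9 to 25.4 in idKO ventricles against 26.8 to 28.4 in control ventricles, and at 26.4 to 33.0 in idKO atria against 25.7 to 32.4 in control atria, and was called in neither. Esr1, part of which is built into MerCreMer, averaged 3099 ± 574 in idKO ventricles against 0.967 ± 0.632 in control ventricles (SD, n = 4 each), and 186 ± 95.5 in idKO atria against 5.02 ± 0.895 in control atria.

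Acta2 has close relatives in heart muscle, so the first sequences shown are the stretch of its coding sequence that most resembles them. Over the coding sequence, Acta2 was 85.4% identical to the skeletal actin gene Acta1, 82.5% to the cardiac actin gene Actc1 and 83.8% to the enteric smooth muscle actin gene Actg2, aligned from the stop codon. The 60 bases with the fewest differences from Acta1 and Actc1, as long as 1 read, are printed from the GENCODE transcripts of GRCm38 with capitals for each base that differs from Acta2.
Acta2, coding bases 1015 to 1074: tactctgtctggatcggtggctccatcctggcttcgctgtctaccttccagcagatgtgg
Acta1, coding bases 1015 to 1074: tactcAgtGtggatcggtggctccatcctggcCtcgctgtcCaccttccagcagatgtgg
Actc1, coding bases 1015 to 1074: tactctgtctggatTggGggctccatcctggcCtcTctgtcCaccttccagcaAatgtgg
Actg2, coding bases 1012 to 1071: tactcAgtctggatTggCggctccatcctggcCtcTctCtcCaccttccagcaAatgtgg
Even here Acta1 differed at 4 bases, Actc1 at 6 and Actg2 at 8. None of the 2136 windows of 60 bases in Acta2 transcripts was shared, letter for letter and on either strand, with a transcript of another gene. The same held for Cnn1, Pdgfrb, Rgs5 and Cspg4, while 0.0784% of windows were shared for Myh11, 4.10% for Mylk and 4.60% for Notch3. Tagln was the exception, with 56.3% of its windows shared, nearly all with the antisense gene Gm48529 on the opposite strand and some with Pcsk7. The labels state no strand-specific counting, so reads of Tagln and Gm48529 cannot be told apart where the genes overlap. Gm48529 was listed at 0.787 to 3.38 in the 16 libraries, below Tagln in every one.

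Promoters are shown for Cnn1 and Rgs5, which differed most between the chambers among the members with a matched promoter. Promoters of Acta2 and Notch3, which held matches to the motifs searched, are also shown. They run from 250 bases before to 50 bases after the start in RefSeq on GRCm38.p6, and RefSeq promoters were matched for 6 of the 9 members. Capitals mark matches to the CArG box (the site of serum response factor, searched in its strict form with only A or T between CC and GG), the MCAT element CATTCC (TEAD factors), TGGGAA (RBPJ, the DNA-binding partner of Notch) or TGACAG (MEIS proteins), searched on both strands.
Acta2, chr19:34255324-34255623, minus strand: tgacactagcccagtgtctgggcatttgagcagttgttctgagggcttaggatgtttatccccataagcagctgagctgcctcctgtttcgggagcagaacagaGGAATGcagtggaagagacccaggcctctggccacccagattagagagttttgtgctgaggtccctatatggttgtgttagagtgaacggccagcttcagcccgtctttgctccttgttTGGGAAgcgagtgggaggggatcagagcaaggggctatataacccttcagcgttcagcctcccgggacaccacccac
Cnn1, chr9:22099003-22099302, plus strand: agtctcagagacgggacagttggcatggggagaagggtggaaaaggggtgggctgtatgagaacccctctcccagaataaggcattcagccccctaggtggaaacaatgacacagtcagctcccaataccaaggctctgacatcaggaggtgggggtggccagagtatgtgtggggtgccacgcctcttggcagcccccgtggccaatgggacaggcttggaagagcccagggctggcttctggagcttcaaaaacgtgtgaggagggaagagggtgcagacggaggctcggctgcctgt
Rgs5, chr1:169655251-169655550, plus strand: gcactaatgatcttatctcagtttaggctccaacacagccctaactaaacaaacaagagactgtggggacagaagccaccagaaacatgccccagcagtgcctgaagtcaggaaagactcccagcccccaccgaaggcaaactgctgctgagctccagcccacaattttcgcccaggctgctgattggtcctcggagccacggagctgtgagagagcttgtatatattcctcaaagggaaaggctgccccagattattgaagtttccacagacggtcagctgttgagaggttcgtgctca
Notch3, chr17:32166841-32167140, minus strand: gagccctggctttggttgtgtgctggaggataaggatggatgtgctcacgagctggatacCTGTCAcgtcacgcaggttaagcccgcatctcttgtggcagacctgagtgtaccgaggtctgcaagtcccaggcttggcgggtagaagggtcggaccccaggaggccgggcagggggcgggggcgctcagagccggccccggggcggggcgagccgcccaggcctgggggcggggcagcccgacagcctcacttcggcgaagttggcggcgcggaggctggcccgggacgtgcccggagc
The MEIS match of Notch3 began 190 bases before the start, and the MCAT and RBPJ matches of Acta2 began 146 and 27 bases before it. Mylk had an MCAT match 158 bases before the RefSeq start that was matched to it. That promoter (chromosome 16, 34784700 to 34784999, plus strand) lies inside the gene, whose first annotated base is 34745210. The match is therefore not at the first start of Mylk. The promoters of Cnn1, Rgs5 and Cspg4 held none of these letters. Of all 32851 RefSeq promoters, 1.63% held a CArG box, 14.7% MCAT, 25.6% the RBPJ letters and 19.2% the MEIS letters. None of the 6 member promoters held this strict form in the window, and forms with a G or C in the core were not searched. A match is a run of letters and not a measured site.

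Across all 16 libraries the markers were measured with reads to spare, except Cnn1 in ventricles, where 14 to 30 reads stood behind each value. Per kilobase of each gene's principal transcript, Rgs5 had the highest level in ventricles, at 140.2 ± 29.8 in idKO and 138 ± 8.47 in control ventricles (SD, n = 4 each, as for all SDs below). Acta2 followed at 76.2 ± 15.8 and 85.7 ± 14.3 per kilobase. In control ventricles Tagln (11.5 ± 0.824) and Pdgfrb (11.3 ± 0.886 per kilobase) came next and did not differ beyond their spread. Notch3 (4.78 ± 0.345), Myh11 (3.56 ± 0.273), Mylk (2.88 ± 0.373) and Cspg4 (2.16 ± 0.194) followed in that order, and Cnn1 was lowest at 0.754 ± 0.270 per kilobase. In control atria Acta2 led at 92.6 ± 17.3 per kilobase. Rgs5 (47.8 ± 4.54) and Tagln (41.3 ± 6.35) came next with overlapping spreads, as did Pdgfrb (10.2 ± 0.837), Cnn1 (9.77 ± 3.45) and Myh11 (8.30 ± 1.63). Notch3 (3.44 ± 0.0831), Mylk (3.15 ± 0.355) and Cspg4 (2.47 ± 0.0922 per kilobase) were lowest. The 2 chambers therefore ranked the markers differently, with Rgs5 first in ventricles and Acta2 first in atria.

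**Figure D1:**
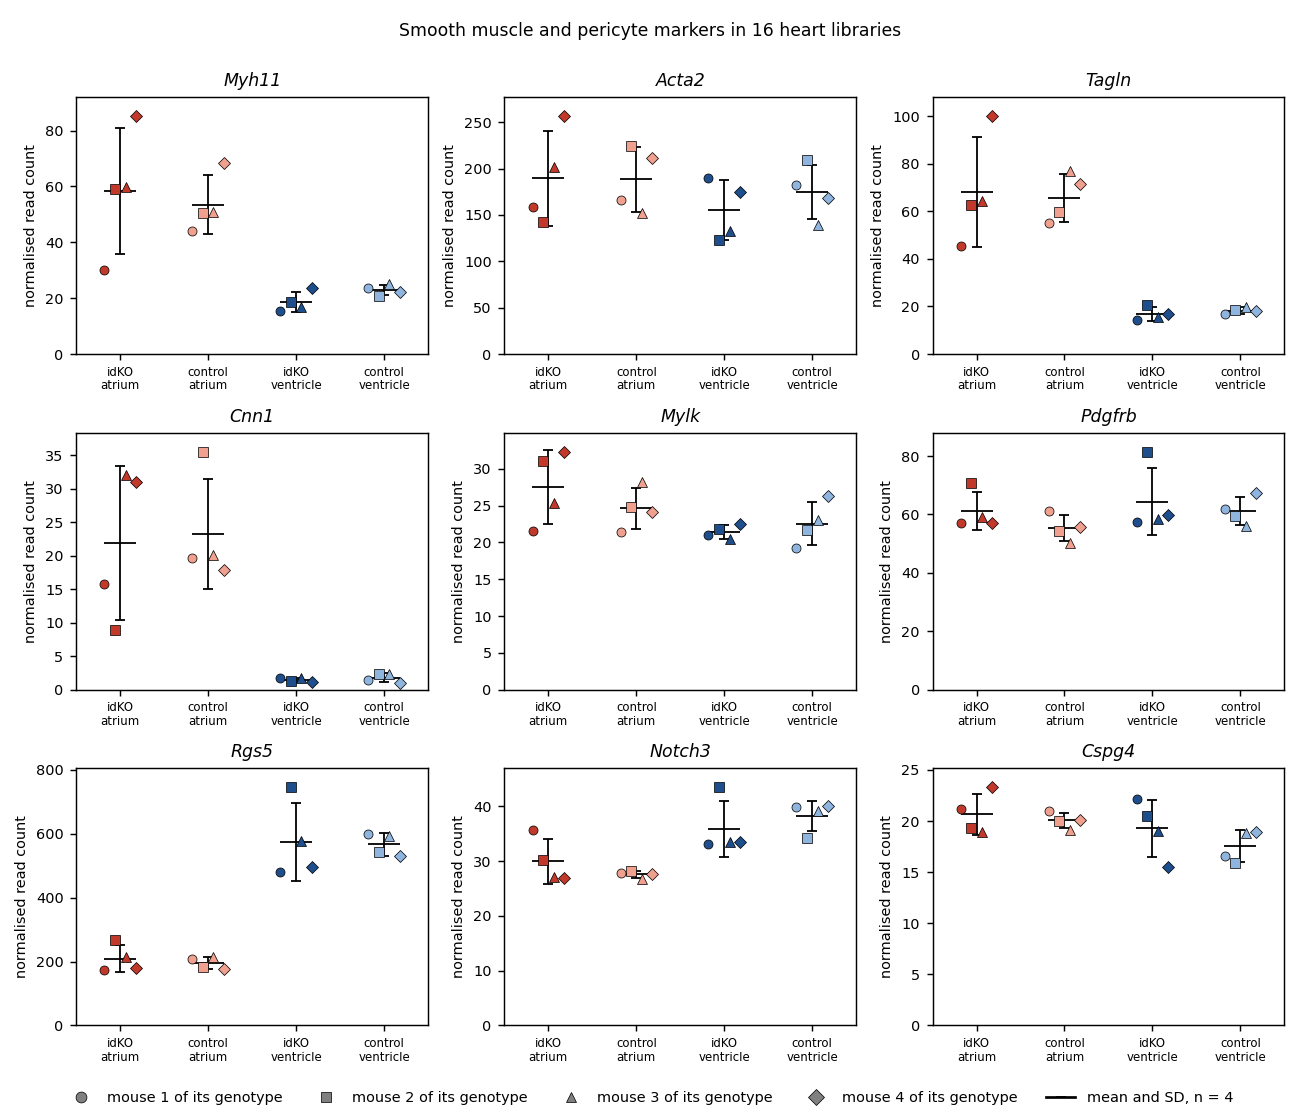
Normalised read counts of the 9 markers on linear axes, 1 symbol per mouse (the same symbol within a genotype is the same mouse in both chambers), with bars for the mean and SD of 4 libraries. Myh11, Tagln and Cnn1 stand higher in atria and Rgs5 in ventricles in both genotypes, while idKO and control libraries overlap in every panel.

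The first question was whether these markers differed between idKO and control mice. They did not pass the test in either chamber. In ventricles limma called 0 of the 9 markers, against 1.95% of the 13808 genes tested (0.492% higher and 1.46% lower in idKO, a split of 68 and 201 genes that was 153 and 111 with values as shares of the library). In atria it called 0 of 9, against 0.0206% of 14598 genes, which is 3 genes. At an unadjusted p under 0.05 there was 1 marker in ventricles, Myh11, and none in atria. edgeR and DESeq2 on the recovered reads also called 0 of 9 in each chamber. For no marker did all idKO libraries lie on 1 side of all control libraries, while 8.79% of genes had such groups without overlap in ventricles and 2.81% in atria. The median log2 fold change (idKO minus control, on the log2(value + 1) scale) of the 9 markers was -0.10 in ventricles and 0.06 in atria, beside -0.01 and 0.00 over all genes tested.

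Myh11 (smooth muscle myosin heavy chain, chromosome 16, 14194535 to 14291372, minus strand, in GRCm38 as for all genes below) came closest in ventricles. It stood at 15.4, 18.5, 16.8 and 23.6 normalised reads in idKO ventricles and at 23.8, 20.9, 24.9 and 22.3 in control ventricles. Of the idKO ventricles, 3 lay below all controls and mouse 4 lay among them. The means were 18.6 ± 3.62 and 23.0 ± 1.76, a log2 fold change of -0.31 ± 0.12 SE (95% interval -0.58 to -0.04, limma adjusted p = 0.278). In atria Myh11 ran from 30.1 in idKO mouse 1 to 85.3 in idKO mouse 4, with 59.0 and 59.8 between them, against 44.0, 50.7, 50.8 and 68.5 in controls. The controls lay inside the idKO range (log2 fold change 0.06 ± 0.24 SE, interval -0.48 to 0.59, limma adjusted p = 0.997).

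Acta2 (smooth muscle actin, chromosome 19, 34241090 to 34255590, minus strand) measured 189, 123, 132 and 175 in idKO ventricles and 182, 209, 139 and 168 in control ventricles. In atria it measured 158, 142, 201 and 257 in idKO mice and 166, 225, 152 and 212 in control mice. The groups overlapped in both chambers, with log2 fold changes of -0.18 ± 0.14 SE in ventricles (interval -0.48 to 0.12) and -0.01 ± 0.17 SE in atria (interval -0.38 to 0.37). On the same chromosome, Lipo2 (33719670 to 33751359) and Prkg1 (30564489 to 31765033) rose in idKO mice. Lipo2 averaged 7.17 ± 0.683 against 0.618 ± 0.293 in ventricles and 5.29 ± 1.46 against 0.648 ± 0.196 in atria. Of the 5 other actin genes, 4 were tested in ventricles and 1 was called: the sarcomeric Acta1 rose in idKO ventricles, to 2288 ± 1174 against 808 ± 210 in control ventricles (log2 fold change 1.42 ± 0.26 SE, limma adjusted p = 0.012).

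Tagln (transgelin, chromosome 9, 45929619 to 45936058, minus strand) measured 14.4, 20.8, 15.4 and 17.1 in idKO ventricles against 16.8, 18.4, 20.0 and 17.98 in control ventricles, a log2 fold change of -0.12 ± 0.12 SE (interval -0.37 to 0.14). Its atrial values were 45.3, 62.6, 64.5 and 100.2 in idKO mice and 55.2, 59.6, 77.0 and 71.5 in control mice. The idKO atria thus held both the lowest and the highest Tagln library of the chamber, as they did for Myh11, in the same mice 1 and 4. Leaving out idKO atrium 4 turned the atrial log2 fold change of Tagln to -0.20 and that of Myh11 to -0.15, neither of which was called.

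Cnn1 (calponin 1, chromosome 9, 22099216 to 22109630, plus strand) had the highest coefficient of variation of the 9 markers in both groups of atria. In idKO atria it ranged from 8.84 in mouse 2 to 32.1 in mouse 3, with 15.7 and 31.0 in mice 1 and 4, and in control atria from 17.8 to 35.5. The atrial log2 fold change was -0.20 ± 0.34 SE with the widest interval of the 9 markers, -0.94 to 0.55. In ventricles Cnn1 averaged 1.49 ± 0.304 in idKO and 1.80 ± 0.642 in control mice. At that depth the interval of the ventricular log2 fold change ran from -0.61 to 0.32.

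Mylk (myosin light chain kinase, chromosome 16, 34745210 to 35002420, plus strand) ranged over 20.4 to 22.5 in idKO ventricles, inside the 19.2 to 26.3 of control ventricles. In atria it measured 21.5, 31.1, 25.3 and 32.3 in idKO mice and 21.5, 24.8, 28.2 and 24.1 in control mice. Its log2 fold changes were -0.06 ± 0.10 SE in ventricles and 0.14 ± 0.13 SE in atria.

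In atria the pericyte markers had smaller standard errors, 0.09 to 0.12 on the log2 scale, than the contractile ones, 0.13 to 0.34. Pdgfrb (the PDGF-B receptor, chromosome 18, 61045150 to 61085061, plus strand) measured 57.6, 81.5, 58.4 and 60.0 in idKO ventricles and 61.7, 59.4, 56.0 and 67.4 in control ventricles. In atria it measured 57.2, 70.7, 59.2 and 57.1 in idKO mice and 61.2, 54.4, 50.2 and 55.6 in control mice. In both chambers idKO mouse 2 was the highest of all and the other idKO libraries lay within the control range. The log2 fold changes were 0.06 ± 0.11 SE in ventricles (interval -0.17 to 0.29) and 0.14 ± 0.09 SE in atria (interval -0.05 to 0.32). Without idKO mouse 2 the ventricular value was -0.06.

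Rgs5 (chromosome 1, 169655501 to 169695813, plus strand) measured 479, 745, 578 and 494 in idKO ventricles and 600.5, 543, 591 and 530.3 in control ventricles. Its atrial values were 174, 268, 216 and 179.6 in idKO mice and 207, 183, 215 and 177 in control mice. The controls lay within the idKO range in both chambers, and mouse 2 set the top of that range in both. The means differed by 0.00 ± 0.11 SE on the log2 scale in ventricles (interval -0.24 to 0.24) and by 0.08 ± 0.12 SE in atria (interval -0.19 to 0.34), and without idKO mouse 2 the atrial value was -0.05.

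Notch3 (chromosome 17, 32120820 to 32166852, minus strand) measured 33.1, 43.5, 33.5 and 33.4 in idKO ventricles against 39.8, 34.2, 39.1 and 40.1 in control ventricles. Of the idKO ventricles, 3 lay just below all controls and mouse 2 above them all. In atria it measured 35.6, 30.3, 27.1 and 26.9 in idKO mice and 26.7 to 28.3 in control mice. The log2 fold changes were -0.10 ± 0.10 SE and 0.11 ± 0.09 SE. Cspg4 (NG2, chromosome 9, 56865033 to 56899870, plus strand) measured 22.1, 20.5, 19.04 and 15.5 in idKO ventricles against 15.8 to 18.9 in control ventricles, and 18.9 to 23.3 in idKO atria against 19.2 to 20.99 in control atria. Its log2 fold changes were 0.12 ± 0.12 SE in ventricles and 0.04 ± 0.09 SE in atria.

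The difference between chambers in the genotype effect (atria minus ventricles) was called for 0 of the 9 markers, against 0.299% of 15075 genes. At an unadjusted p under 0.05 there were 0, and edgeR and DESeq2 also called 0. The differences of log2 fold changes ran from -0.09 for Cspg4 to 0.36 for Myh11 (interval -0.27 to 0.999), with a median of 0.12 beside 0.01 over all genes, and the lowest limma adjusted p was 0.886, for Notch3.

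**Figure D2:**
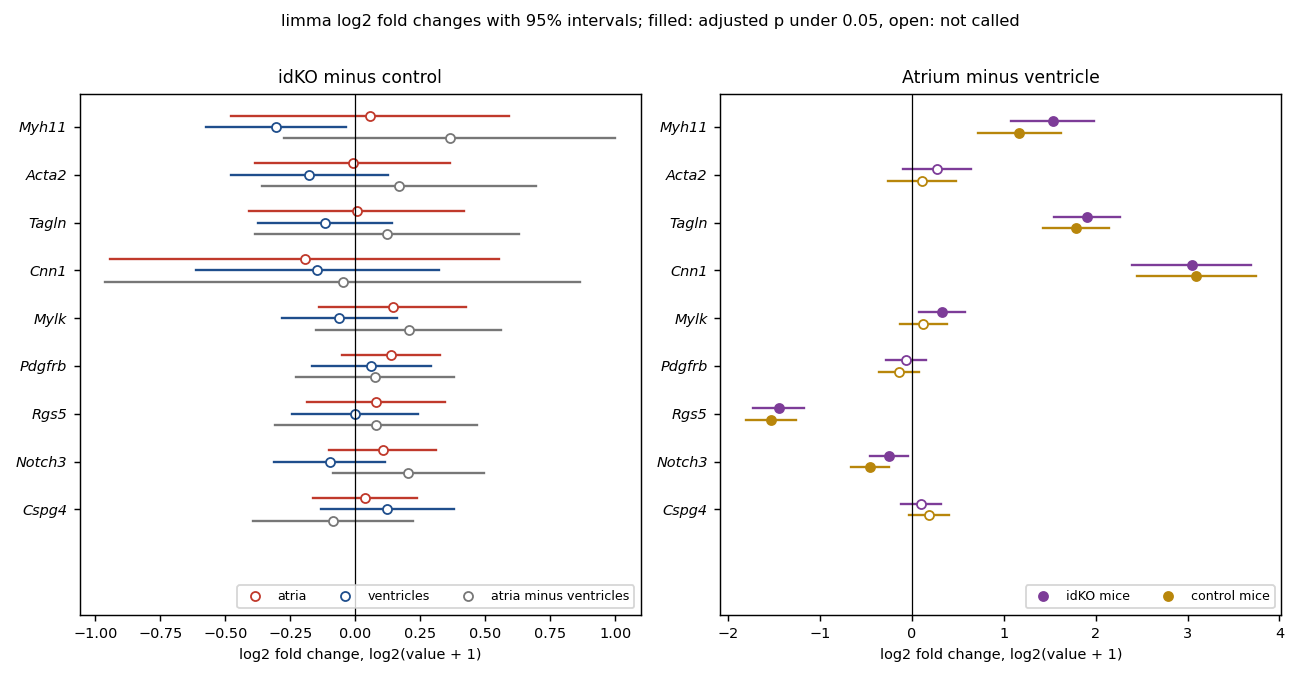
log2 fold changes of the 9 markers with 95% intervals from limma, for idKO minus control in atria, in ventricles and as their difference (left) and for atrium minus ventricle in each genotype (right). All genotype points are open (not called), while Cnn1, Tagln, Myh11, Rgs5 and Notch3 are filled (called) between chambers in both genotypes and Mylk in idKO mice.

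The idKO mice differed more among themselves in these markers than the control mice did. In atria the coefficient of variation over 4 libraries was higher in idKO than in control mice for 9 of the 9 markers, with a median of 20.6% against 11.3%. In ventricles it was higher for 7 of 9, with a median of 17.8% against 7.84%. Over all genes tested, 50.8% had the higher coefficient in idKO atria and 54.8% in idKO ventricles, with medians of 11.6% against 11.6% and 11.7% against 11.1%. This measure was chosen after the values were seen and was not tested. Without idKO mouse 2 the markers' median in ventricles was 10.4% against 7.84% and the count 5 of 9, while in atria the median was 20.8% against 11.3% and the count 7 of 9. Over all genes, without that mouse, 48% had the higher coefficient in idKO ventricles (median 10.5% against 11.1%). In idKO atria 47.5% did (10.8% against 11.6%).

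For Rgs5 and Pdgfrb the same mouse was the highest of the idKO group in both chambers, while for Notch3 it was mouse 1 in atria and mouse 2 in ventricles, and for Cspg4 mouse 4 in atria and mouse 1 in ventricles. Relative to the control mean of the chamber, idKO mouse 2 stood at 1.37 in the atrium and 1.32 in the ventricle for Rgs5, and at 1.28 and 1.33 for Pdgfrb. For Acta2 it stood at 0.754 and 0.706, and for Cnn1 at 0.380 and 0.731. Without it the idKO minus control value in atria turned to 0.12 for Acta2 and 0.16 for Cnn1 on the log2 scale, neither called. Its fibroblast marker sum, over 10 genes such as Col1a1 and Dcn, was also the highest of its groups, at 6293 in the atrium beside 4903 to 5337 in the other idKO atria, and 3738 in the ventricle beside 2461 to 2809. The same held for its endothelial marker sum over 10 genes, at 1221 beside 1088 to 1176 and 1065 beside 971 to 1022. Its macrophage marker sum over 8 genes was the lowest of the idKO atria (270 beside 287 to 320) and the highest of the idKO ventricles (275 beside 237 to 260). Its cardiomyocyte marker sum over 8 genes was the lowest, at 55945 and 81846, beside 57378 to 64352 and 90898 to 93093. The part of these marker sums in its Rgs5 and Pdgfrb values was not tested. For Rgs5 and for Pdgfrb, 8 of 8 mice lay on the same side of their group mean in atrium and ventricle, while for the other markers 3 to 6 of 8 mice did. These counts were not taken over all genes and were not tested, so they are not a trait of these markers. Over 15075 genes the 2 libraries of a mouse correlated at 0.185 to 0.319.

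**Figure D3:**
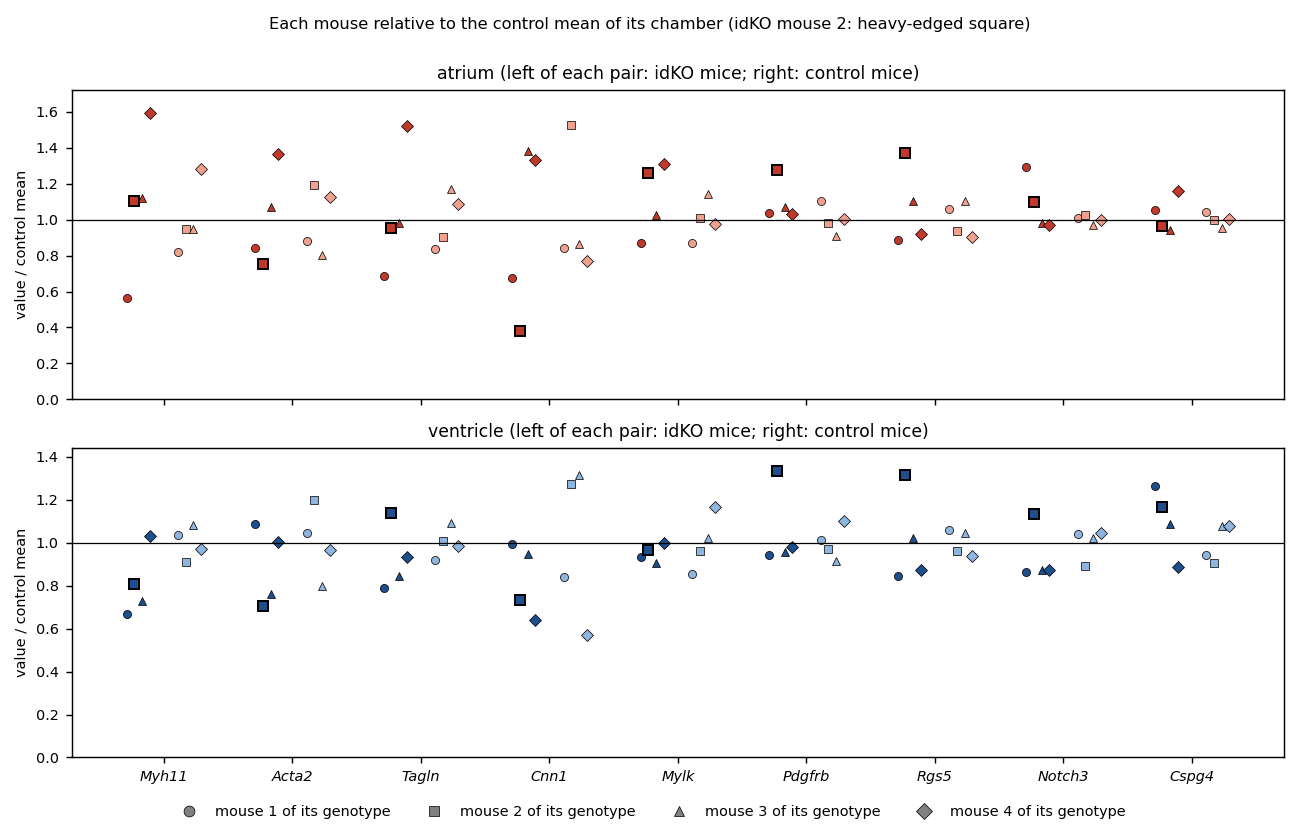
Values of each mouse divided by the control mean of the same chamber, atria above and ventricles below, with idKO mice left and control mice right of each pair and the line at 1 marking the control mean. idKO mouse 2 (heavy-edged square) is the highest of its group for Rgs5 and Pdgfrb and the lowest for Acta2 in both chambers.

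The second question was how the markers differ between the chambers of the same hearts. The contractile markers Cnn1, Tagln and Myh11 were higher in atria and the pericyte markers Rgs5 and Notch3 were lower, in both genotypes. In idKO mice limma called 4 of 9 markers higher in atria, beside 26.5% of 15075 genes, and 2 lower, beside 26.7%. In control mice it called 3 higher, beside 28.0% of genes, and 2 lower, beside 28.4%. Since most genes tested were called between chambers, the number of markers called is not a result about the markers, and their sizes and directions are given instead. In whole tissue, fewer cells of a type and less RNA per cell cannot be told apart.

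Cnn1 differed most. It averaged 21.9 ± 11.5 in idKO atria and 1.49 ± 0.304 in idKO ventricles, 14.7-fold higher, and 23.3 ± 8.22 in control atria and 1.80 ± 0.642 in control ventricles, 12.9-fold higher. The log2 fold changes were 3.05 and 3.09, each ± 0.31 SE (limma adjusted p = 9.7e-08 and 7.1e-08). They are on the log2(value + 1) scale, which shrinks changes at values as low as those of the ventricles, so they are smaller than these ratios of means. Over the alternatives run, the log2 fold change ranged from 1.94 to 3.94 in idKO mice and from 2.02 to 3.79 in control mice. Tagln averaged 68.2 ± 23.1 in idKO atria and 16.9 ± 2.81 in idKO ventricles (log2 fold change 1.91 ± 0.17 SE), and 65.8 ± 10.1 in control atria against 18.3 ± 1.31 in control ventricles (1.78 ± 0.17 SE). Gm48529, which shares Tagln's windows on the other strand, averaged 1.72 ± 0.819 in idKO atria and 1.82 ± 1.09 in idKO ventricles, and 1.80 ± 0.616 and 1.40 ± 0.687 in control mice. Myh11 averaged 58.5 ± 22.6 in idKO atria, 3.15-fold the level of idKO ventricles (a log2 difference of 1.53 ± 0.21 SE, limma adjusted p = 6.5e-06), and 53.5 ± 10.5 in control atria, 2.33-fold (1.17 ± 0.21 SE, limma adjusted p = 1.3e-04). The lowest atrial library lay above the highest ventricular one for each of these 3 genes in each genotype.

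Acta2 and Mylk did not follow them on the deposited scale. Acta2 averaged 189.6 ± 51.2 in idKO atria and 155 ± 32.2 in idKO ventricles (a log2 difference of 0.27 ± 0.18 SE, limma adjusted p = 0.206), and 188 ± 35.2 in control atria and 174 ± 29.1 in control ventricles (0.11 ± 0.18 SE, interval -0.27 to 0.48). With the mouse as a fixed block, Acta2 was called higher in idKO atria (limma adjusted p = 0.037), and with the mouse as a random effect it was not (0.130). Mylk was called higher in idKO atria by 0.33 ± 0.12 SE (27.5 ± 5.05 against 21.4 ± 0.933, limma adjusted p = 0.026) and not in control atria (24.6 ± 2.77 against 22.5 ± 2.92, 0.13 ± 0.12 SE). The call in idKO mice was lost without idKO mouse 2, 3 or 4 (limma adjusted p = 0.113, 0.063 and 0.104). Whether the chamber difference itself differs between genotypes is the same contrast as the difference of genotype effects above, which was not called for Mylk (0.21, limma adjusted p = 0.926).

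Among the pericyte markers Rgs5 was the lower in atria by the widest margin, at 209.1 ± 43.2 in idKO atria against 574 ± 122 in idKO ventricles (-1.45 on the log2 scale, ± 0.13 SE, limma adjusted p = 2.1e-08), and 196 ± 18.6 in control atria against 566 ± 34.7 in control ventricles (-1.53 ± 0.13 SE, limma adjusted p = 9.1e-09). Notch3 averaged 30.0 ± 4.08 in idKO atria against 35.9 ± 5.08 in idKO ventricles (-0.25 ± 0.10 SE, limma adjusted p = 0.038), and 27.6 ± 0.666 in control atria against 38.3 ± 2.77 in control ventricles (-0.46 ± 0.10 SE, limma adjusted p = 6.3e-04). In idKO mice the Notch3 groups overlapped, and the call was lost with edgeR (adjusted p = 0.062), without idKO mouse 2, 3 or 4 (limma adjusted p = 0.187, 0.104 and 0.100) and, narrowly, without control mouse 3 or 4 (0.052 and 0.051). Pdgfrb averaged 61.1 ± 6.52 in idKO atria against 64.4 ± 11.5 in idKO ventricles, and 55.4 ± 4.53 in control atria against 61.1 ± 4.79 in control ventricles, log2 fold changes of -0.07 and -0.14 that were not called. Cspg4 averaged 20.7 ± 2.005 against 19.3 ± 2.80 in idKO mice and 20.1 ± 0.749 against 17.5 ± 1.58 in control mice, also not called.

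The scaling between chambers decides 2 of these directions and several of these calls. When values were taken as shares of the library, the median of all genes moved to 0.43 in idKO and 0.50 in control mice (atrium minus ventricle). On that scale Pdgfrb was 0.41 and 0.42, called higher in atria, and Notch3 was 0.21 and 0.09, not called, all 4 values below the median of all genes. Rgs5 stayed lower in atria at -0.97 in both genotypes, and 7 of 9 markers were called higher in each. Among these were Acta2 (0.75 in idKO and 0.67 in control mice), Cspg4 (0.55 and 0.72) and, in control mice, Mylk (0.66). The main fit on the deposited scale called none of these values. Over all genes that scale gave 9287 higher and 1550 lower calls in idKO mice, against 3998 and 4024, and 9924 and 1392 in control mice, against 4214 and 4278. Cnn1, Tagln and Myh11 were called higher in atria on both scales.

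Ratios of 2 markers within a library do not depend on any scaling of the library. The ratio of Rgs5 to Pdgfrb was 3.40 ± 0.367 in idKO atria against 8.90 ± 0.784 in idKO ventricles, and 3.55 ± 0.499 in control atria against 9.33 ± 1.13 in control ventricles. Its highest atrial value was 4.29 and its lowest ventricular value 7.87, so the chambers did not overlap. The ratio of Tagln to Acta2 was 0.359 ± 0.0693 in idKO atria against 0.115 ± 0.0397 in idKO ventricles, and 0.361 ± 0.103 in control atria against 0.108 ± 0.0253 in control ventricles. Cnn1 to Acta2 was 0.110 ± 0.0407 against 0.00988 ± 0.00262 in idKO mice and 0.123 ± 0.0308 against 0.0106 ± 0.00473 in control mice. Myh11 to Acta2 was 0.309 ± 0.0933 against 0.123 ± 0.0297 in idKO mice and 0.288 ± 0.0513 against 0.136 ± 0.0327 in control mice. Mylk to Acta2 overlapped between chambers, at 0.152 ± 0.0449 against 0.143 ± 0.0290 in idKO mice and 0.135 ± 0.0350 against 0.133 ± 0.0326 in control mice. The contractile markers therefore did not keep 1 proportion to each other across chambers. These ratios were chosen after the values were seen and were not tested.

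**Figure D4:**
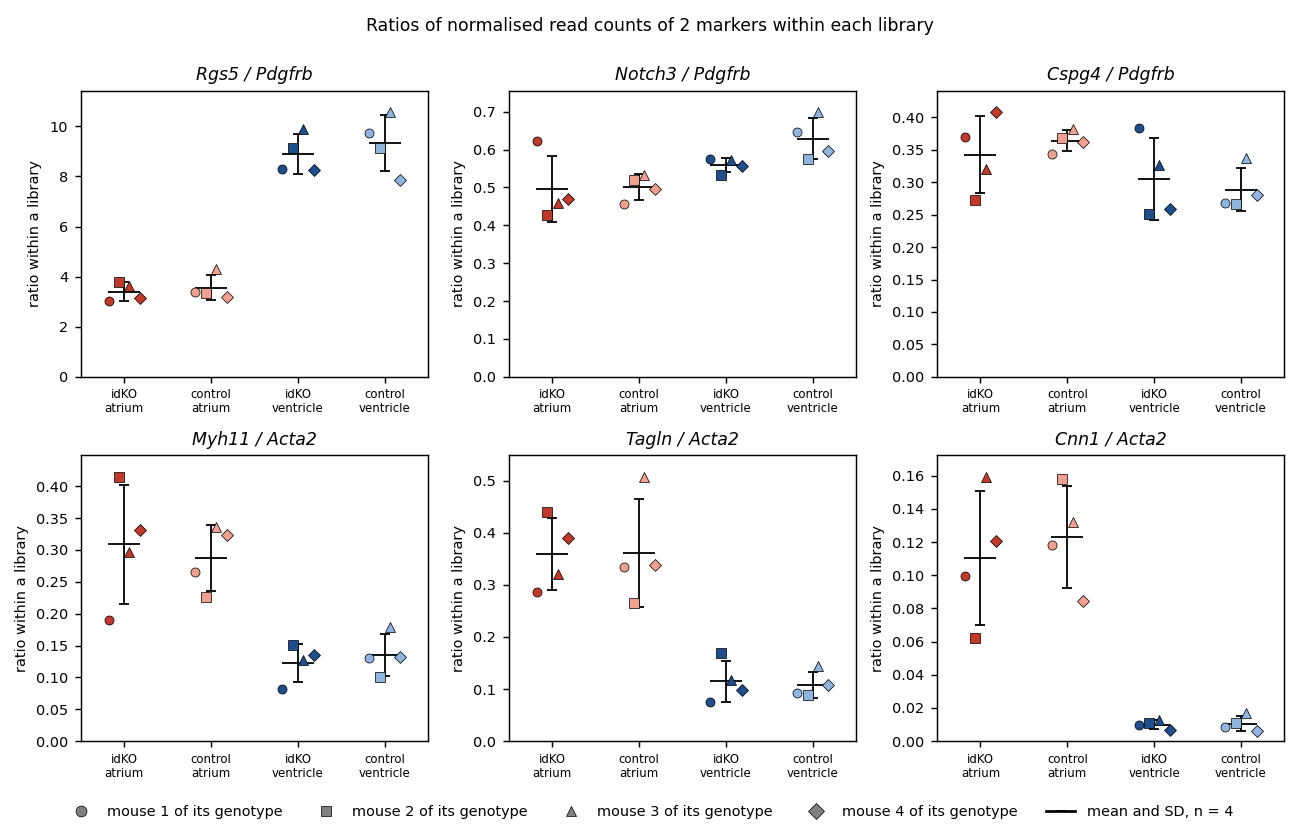
Ratios of the normalised read counts of 2 markers within each library on linear axes, 1 symbol per mouse, with the mean and SD of 4 libraries. Rgs5 / Pdgfrb is lower in every atrium than in any ventricle, and Tagln / Acta2, Cnn1 / Acta2 and Myh11 / Acta2 are higher in every atrium than in any ventricle, in both genotypes.

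Other cell types also differed between the chambers. The summed level of 6 mesothelial markers, such as Msln and Upk3b, was 197 to 389 in idKO atria and 9.54 to 27.4 in idKO ventricles, and 299 to 398 in control atria and 27.1 to 35.9 in control ventricles, with all 6 detected in every library. The sum of 6 adipocyte markers was 136 to 386 in idKO atria against 1.51 to 1.97 in idKO ventricles, and 89.7 to 305 in control atria against 1.47 to 2.72 in control ventricles, where Lep was at 0 in all 4. The sum of 10 fibroblast markers was 4903 to 6293 in idKO atria against 2461 to 3738 in idKO ventricles, and 4237 to 5921 against 2373 to 2713 in control mice. The sum of 6 Schwann cell markers was 70.1 to 88.7 against 19.4 to 27.2 in idKO mice and 67.3 to 86.0 against 22.7 to 27.3 in control mice. The sum of 8 cardiomyocyte markers was lower in atria, at 55945 to 64352 against 81846 to 93093 in idKO mice and 57321 to 67341 against 89981 to 96470 in control mice. The sum of 10 endothelial markers was 1088 to 1221 against 971 to 1065 in idKO mice, without overlap, and 977 to 1075 against 971 to 1029 in control mice, with overlap. These sums are on the deposited scale. Its effective size averaged 0.958 of the reads in idKO atria and 0.687 in idKO ventricles, and 0.947 and 0.639 in control mice. The sums were not taken as shares of the library. The cardiomyocyte and endothelial differences between chambers therefore depend on this scaling. None of the 4 lung markers had a row in the table. The part of these other cell types in the chamber differences of the 9 markers was not tested.

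Among 15 other genes of the smooth muscle contractile apparatus, 10 were called higher in atria and 3 lower in idKO mice, and 8 higher and 2 lower in control mice. Their median log2 fold change was 0.85 and 0.57, beside 0.02 over all genes in each genotype. Over all genes, 26.5% were called higher and 26.7% lower in idKO atria, and 28.0% and 28.4% in control atria. These shares stand beside the chamber counts of this list and of every list below. The tropomyosin gene Tpm2 averaged 215 in idKO atria against 18.8 in idKO ventricles (log2 fold change 3.46 ± 0.12 SE). In control mice it averaged 213 in atria against 14.2 in ventricles (3.82 ± 0.12 SE). Which cells gave these Tpm2 reads was not tested. The regulatory light chain Myl9, the substrate of Mylk, averaged 376 against 25.3 in idKO mice and 420.5 against 25.9 in control mice (3.85 and 3.93, each ± 0.19 SE). Cald1, the actin-binding caldesmon, was called higher in atria by 0.43 in idKO and 0.57 in control mice. Lmod1, a smooth muscle leiomodin, was called higher by 1.73 in idKO and 1.22 in control mice. The intermediate filament gene Des, which cardiomyocytes also express, was lower in atria by 0.92 in idKO and 0.86 in control mice. With genotype, 0 of 15 were called in atria and 0 of the 14 tested in ventricles. The smallest p in ventricles was that of the myosin phosphatase subunit Ppp1r12b (319 against 400, log2 fold change -0.33, limma adjusted p = 0.061).

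On the deposited scale the pericyte list went the other way between chambers. Of 15 other pericyte genes, 11 were called lower and 3 higher in idKO atria, and 12 lower and 3 higher in control atria, with a median log2 fold change of -0.60 and -0.66. As shares of the library, the median of all genes moved to 0.43 in idKO and 0.50 in control mice. Some of the drops in control mice were smaller than that shift, such as Gjc1 (-0.24), Steap4 (-0.36) and Ndufa4l2 (-0.45). Calls of this list on that scale are not given here. Abcc9 and Kcnj8, the subunits of the vascular ATP-sensitive potassium channel, were both lower in atria. Kcnj8 averaged 17.6 against 46.3 in idKO mice (-1.34 ± 0.11 SE) and 16.8 against 42.2 in control mice (-1.28 ± 0.11 SE). Vtn (vitronectin) averaged 7.12 against 23.4 in idKO mice (-1.59 ± 0.17 SE) and 5.41 against 21.1 in control mice (-1.81 ± 0.17 SE). Mcam, an adhesion molecule of mural and endothelial cells, was higher in atria, at 69.0 against 32.2 in idKO mice and 68.9 against 29.5 in control mice. With genotype, Abcc9 was the 1 gene of the 15 called. It fell in idKO ventricles to 215 ± 32.2 against 467 ± 37.5 in control ventricles (a log2 difference of -1.12 ± 0.09 SE, limma adjusted p = 2.0e-05), and its genotype effect differed between chambers (1.19 ± 0.14 SE, limma adjusted p = 2.7e-04). Abcc9 is also expressed by cardiomyocytes. Its channel partner Kcnj8 was not called with genotype. Which cells held the fall of Abcc9 was not tested.

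**Figure D5:**
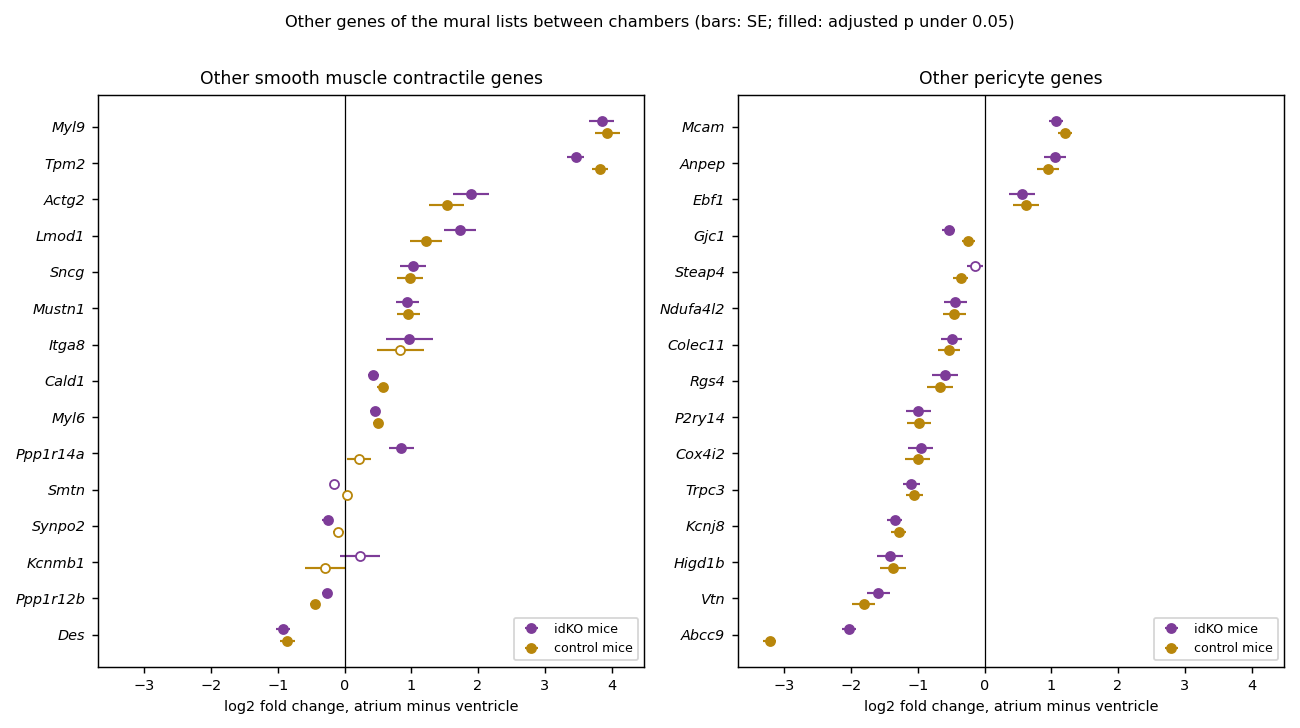
log2 fold changes of atrium minus ventricle with SE from limma for the 15 other smooth muscle contractile genes (left) and the 15 other pericyte genes (right), in idKO and control mice, ordered by the control value. Most contractile genes lie right of 0 and most pericyte genes left of it, with Abcc9 the farthest left at -2.03 in idKO and -3.22 in control mice. All values are on the deposited scale, on which the position of 0 between chambers depends.

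The pathways around the markers were read from lists of ligands, receptors and targets. Since 26.5% to 28.4% of all genes were called in each direction between chambers, the chamber counts of these lists are a description. They are not a result about a pathway. With genotype, 1.95% of all genes were called in ventricles and 0.0206% in atria. Of 5 PDGF ligands and receptors, none was called with genotype in either chamber, and 3 were called higher and 2 lower in idKO atria and 2 and 2 in control atria. Between chambers Pdgfb, the ligand of Pdgfrb, was lower in atria by 0.61 in idKO and 0.75 in control mice (18.5 against 28.7 and 17.6 against 30.3), while Pdgfc, a ligand of Pdgfra, was higher (17.45 against 4.71 and 17.99 against 3.21). Of 12 Notch genes other than Notch3, none was called with genotype, and 4 were called higher and 5 lower in idKO atria and 5 and 5 in control atria. In atria the ligand Jag2 was lower (23.0 against 41.5 in idKO and 24.5 against 44.6 in control mice), and the receptor Notch2 (46.6 against 24.0 and 44.3 against 22.0) and the target Hey1 (19.7 against 10.1 and 20.2 against 9.58) were higher. Heyl, a Notch target in mural cells, was not called with genotype (24.5 against 18.8 in ventricles, limma adjusted p = 0.277).

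Of 12 genes of myosin phosphorylation (11 tested in ventricles), Mylk4, a relative of Mylk found in heart muscle, was the 1 called with genotype. It fell to 171 in idKO ventricles against 370.5 in control ventricles (log2 fold change -1.12 ± 0.11 SE, limma adjusted p = 6.3e-05). Between chambers 3 genes of this list were called higher and 5 lower in idKO atria, and 3 and 4 in control atria. Of 6 genes of cGMP relaxation, the pathway by which nitric oxide relaxes smooth muscle, the kinase Prkg1 was called higher in idKO mice in both chambers, at 19.6 ± 2.44 against 11.3 ± 2.78 in ventricles and 32.6 ± 2.35 against 12.9 ± 1.53 in atria (log2 fold change 0.77 ± 0.16 SE and 1.28 ± 0.10 SE, limma adjusted p = 0.026 and 2.4e-04). The other 5 genes were not called with genotype in either chamber. Prkg1 lies on chromosome 19, as does Lipo2, which also rose in idKO mice in both chambers. Why Prkg1 rose was not tested. Between chambers 5 of the 6 were called higher in idKO atria and 4 in control atria, with none lower. The soluble guanylate cyclase subunit Gucy1a3 was higher in atria (160.5 against 19.03 in idKO and 155 against 18.4 in control mice), as was the Prkg1 substrate Mrvi1 (124 against 10.2 and 119.8 against 10.04). Of 8 vasoconstrictor receptors, the adrenergic receptor Adra1b fell in idKO ventricles (31.2 against 45.5, a log2 difference of -0.54 ± 0.11 SE, limma adjusted p = 0.025) and none was called in atria. Between chambers 2 were called higher and 2 lower in idKO atria, and 2 and 4 in control atria. The angiotensin receptor Agtr1a was lower in atria (12.1 against 47.7 in idKO and 13.6 against 42.6 in control mice), and the endothelin receptor Ednra was higher (73.9 against 39.1 and 74.4 against 44.6).

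Among 10 transcription factors of mural cells, none was called with genotype, and 3 were called higher in idKO atria and 5 in control atria, with none lower. Myocd and Srf, the coactivator and DNA-binding factor of smooth muscle genes, were not called between chambers either, while Nr2f2 (73.5 against 14.3 in idKO and 74.9 against 12.4 in control mice), Foxc1 and Tbx18 were higher in atria. Of 10 RGS genes, 9 had a row in the table and none was called with genotype, while 5 were called higher and 1 lower in idKO atria and 4 and 1 in control atria. Rgs12 was higher in atria (72.2 against 17.4 in idKO and 72.1 against 18.3 in control mice), and Rgs4 was lower (log2 fold change -0.59 in idKO and -0.66 in control mice), as Rgs5 was. Of 12 genes of elastic fibres and vessel wall matrix, 6 were called higher and 3 lower in atria in each genotype, led by Mgp and Fn1 among the higher, and none with genotype. Of 4 calponin and transgelin relatives, 3 were called higher in atria in each genotype, Cnn2 and Tagln2 in both. Of 3 non-muscle myosin heavy chains, Myh9 and Myh10 were called higher in atria and Myh14 lower. No gene of these 2 lists was called with genotype.

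Genes that varied most like the average of the 9 markers, or like a single marker, were also searched. The search used the deviations of each library from its group mean, on the log2(value + 1) scale over 16 libraries. The 9 markers did not vary as 1 pattern. Pearson r between 2 markers ran from 0.81 for Tagln and Myh11 to -0.68 for Rgs5 and Acta2, so the average mixes opposed markers. The nearest to the average of the markers was Mvp (Pearson r = 0.90), followed by Mark1 (0.84), Prpf3 (0.79), Gjc1 (0.78), E230013L22Rik (0.78), Csrp1 (0.78), Tspan18 (0.78), Arhgef25 (0.77), Smim3 (0.75) and Lmod1 (0.75). Single markers had Itga8 nearest to Myh11 (0.90), Tmx2 to Acta2 (0.93), Fam129a to Rgs5 (0.91) and Ankfy1 to Pdgfrb (0.89). Dhx29 was nearest to Tagln (0.79), Myh7 to Cnn1 (0.86), Tmem117 to Mylk (0.89), Scarb1 to Notch3 (0.85) and Rfxank to Cspg4 (0.89). The 16 points share 8 mice and were searched over all genes, so these values describe the libraries and carry no p.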

How the data were processed

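Polyadenylated RNA was sequenced as single reads of 60 bases, from 20 ng of RNA per library, per the labels' protocols. Per the submitters' processing notes, the authors used cutadapt and RSEM 1.3.1 with the build GRCm38; the sources used here do not name the scaling tool or a low filter. The deposited values are a normalised signal: each is a whole read number plus 0.5, divided by an effective library size. Whole reads came out for 100% of values within a tolerance of 0.01. The table lists 16118 genes; GENCODE gave names to 202 of the 206 IDs that had none.

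Genes with at least 4 libraries of a fit at 1 or more were tested with limma 3.58.1 (R 4.3.3) on log2 of the deposited value plus a pseudocount of 1, with a trended prior, two-sided, with Benjamini-Hochberg adjustment over all genes and calls at an adjusted p under 0.05. Genotype was fitted on each chamber's 8 libraries, and chambers and the difference of genotype effects on all 16. The main fit on all 16 did not use the mouse as a block, so it treated the libraries of a mouse as independent. The mouse as a block was run as an alternative. SDs are over 4 mice. The test was checked on simulated data. On the recovered reads, edgeR 4.0.16 called 76 genes higher and 185 lower in idKO ventricles and 3 higher in idKO atria, and DESeq2 1.42.0 called 193 and 345 in ventricles and 10 and 1 in atria.

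The atrial and ventricular libraries of a mouse are paired because they come from 1 animal. Their deviations from the group means correlated at 0.185 to 0.319 over 15075 genes, and 8 of 8 mice correlated best with themselves. Chi-square tests of the reads of 2 replicates averaged 7.77 to 16.1 per gene, so replicates differed by more than sampling noise.

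The members and the gene lists were chosen with earlier results of these data known. All 9 markers are named; of each other list, up to 4 called genes with the smallest p, otherwise up to 2 with the smallest p, and the nearest genes by correlation among those with a mean of at least 5. The genes shown beside them (Meis2, Esr1, Lipo2, Gm48529, Rgs4, Myocd, Srf, and Kcnj8 with genotype) were chosen after their values were seen. Alternatives covered the pseudocount, the filter, the scaling, the prior, edgeR, DESeq2, the mouse as a block, and each library or mouse left out.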

Additional observations from a re-analysis of the deposited data

Results flagged for a closer look

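In 4 of the 36 groups of 4 libraries (9 markers in 4 groups), 1 library stood far from the other 3 by Dixon's test, which chance alone does in about 1 of 20 groups. Cnn1 in control mouse 2 reached 35.508 in the atrium, against 17.8 to 20.1 in the other control atria. The other 3 were all idKO mouse 2. Pdgfrb reached 70.748 in its atrium, against 57.1 to 59.2 in the other idKO atria, and 81.506 in its ventricle, against 57.6 to 60.0 in the other idKO ventricles. Notch3 reached 43.484 in its ventricle, against 33.1 to 33.5.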

How the results depend on the processing

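No marker was called with genotype, or for the difference of genotype effects, under any alternative run, and Cnn1, Tagln, Myh11 and Rgs5 were called between chambers in both genotypes under every one. With values as shares of the library, 7 markers were called higher and 1 lower in atria in each genotype: Pdgfrb turned to 0.4075 in idKO and 0.4151 in control mice and Notch3 to 0.2145 and 0.0939. That scaling turned the idKO minus control value in ventricles to 0.0359 for Mylk, 0.1021 for Rgs5 and 0.0022 for Notch3, that of Acta2 in atria to 0.0084, and the difference of genotype effects to -0.0076 for Pdgfrb and -0.0049 for Rgs5. Rgs5 in ventricles turned to 0.0137 with median-ratio scaling, 0.0357 with edgeR and 0.0356 with DESeq2, Acta2 in atria to 0.0086 with edgeR and 0.009 with DESeq2, and the difference for Cnn1 to 0.1472 and 0.1719. In idKO mice 1 marker, not 2, was called lower in atria without a trended prior and with edgeR. The cause of these changes was not tested. With 1 library left out, the ventricular values ran from -0.1341 to 0.0783 for Rgs5, -0.0553 to 0.1094 for Pdgfrb and -0.1322 to 0.0109 for Mylk. The atrial ones ran from -0.1676 to 0.1153 for Acta2, -0.4269 to 0.1562 for Cnn1, -0.0465 to 0.1605 for Rgs5, -0.1523 to 0.3387 for Myh11, -0.1976 to 0.1786 for Tagln and -0.0199 to 0.0756 for Cspg4. With 1 mouse left out, the difference of genotype effects ran from -0.3311 to 0.2699 for Cnn1 and -0.0726 to 0.2414 for Tagln. In idKO mice the chamber value of Cspg4 then ran from -0.0491 to 0.162, and the markers called lower in atria from 1 to 2. Besides Acta2 in idKO mice with the mouse as a fixed block (0.2739, adjusted p = 0.037), the replicate block changed no call of a marker. With genotype, limma called 30 genes higher and 118 lower in ventricles without a filter, 17 and 60 without a trended prior, and 153 and 111 as shares of the library, against 68 and 201; DESeq2 called 193 and 345, a fit of all 16 libraries 111 and 242, and leaving out a library 36 to 102 and 100 to 258. With the fixed block, the difference of genotype effects was called for 80 genes upward and 23 downward, and with the random one for 55 and 17, against 41 and 4; DESeq2 called 64 and 22, edgeR 27 and 4, shares of the library 17 and 5, no trended prior 22 and 3, and leaving out a mouse 17 to 30 and 2 to 10. Reads limit Cnn1 in ventricles most, at 14 to 30 per library. With the filter at 5, Cnn1 was not tested in ventricles.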
